A study of Mus musculus with 24 samples.

Results

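Mitochondrial ribosomal proteins are encoded by nuclear genes whose mouse symbols start with Mrpl, for the large subunit, or Mrps, for the small subunit. Every protein-coding gene whose symbol joins either prefix to a number was taken, by name alone, which gave 78 genes of the 55401 genes counted and of the 21897 protein-coding genes among them. Of these 78 genes, 77 had enough counts to be tested. The exception, Mrpl53, had 0 counts in all 12 libraries, and 88.0% of its exon bases also lie, on the same strand, in exons of the annotated gene Gm42688. A further 5 genes with such names are not annotated as protein-coding and were left out.

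The mitochondrial ribosome translates the small set of messages encoded by mitochondrial DNA, all of which are core subunits of the respiratory chain and ATP synthase. Its ribosomal RNAs are transcribed inside the organelle, whereas its proteins are made in the cytosol, imported and assembled on that RNA. Some of these proteins descend from bacterial ribosomal proteins and others are known only from mitochondrial ribosomes. Muscle renews its respiratory chain through this machine, and oxidative fibres hold the most mitochondria.

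Gastrocnemius, a calf muscle of mixed fibre types remote from the burned skin, was taken from male C57BL6 mice. Burned mice had a scald over 25% of their body surface, sham mice had none, and the muscle was taken 24 h later. The mice were obtained at 4 weeks (young) or 10 weeks (adult) of age and acclimated, and were 5 or 11 weeks old at the procedure. All groups received isoflurane and buprenorphine, and only burned mice were scalded and resuscitated with fluid, so the effects of burn and fluid cannot be told apart. Age and treatment were crossed, giving adult sham, adult burn, young sham and young burn mice, 3 of each, with a poly-A RNA library from every mouse. The comparisons ask how age set the level of these genes, how burn changed it at either age, and whether the burn difference itself changed with age.

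Total counts ran from 4392605 to 5688512 per library. Young burn replicate 2 stood apart, with a chi-square of 25.87 to 34.68 per gene against the other young burn mice, where all other pairs within a group gave 3.26 to 11.94. Each comparison was therefore made with all 12 libraries and with the 11 without that mouse. The skeletal muscle markers Acta1, Ckm, Myh4, Tnnt3, Actn3 and Mb summed to 92790 to 131100 CPM (counts scaled to the normalized library total) in young sham, 68670 to 86430 in young burn, 87920 to 95430 in adult sham and 86360 to 104900 in adult burn. Young burn was thus wholly below both sham groups, and its highest mouse only reached the lowest adult burn mouse. Marker lists of other cells and fibres also moved with the groups. The 5 fibroblast markers summed to 5600 to 7155 CPM in young and 2394 to 3220 CPM in adult mice. The 6 macrophage markers summed to 234.0 to 383.4 CPM in young burn, 141.2 to 181.9 in young sham, 160.9 to 231.9 in adult burn and 131.3 to 153.9 in adult sham. The 6 slow or oxidative fibre markers summed to 547.2 to 758.6 CPM in adult burn and 1107 to 1844 in adult sham, and to 531.4 in young burn replicate 2 against 1479 and 1652 in the other young burn mice. The 4 tendon markers summed to 72.9 to 153.9 CPM in young burn against 260.6 to 298.8 in young sham, the 5 neutrophil markers to 9.40 to 27.4 against 2.03 to 4.14, and the 5 endothelial markers to 322.6 to 430.7 in young burn against 247.6 to 269.1 in adult burn. No marker of these lists was at 0, and their part in the results was not tested. In RNA from whole muscle, fewer cells of a type and less RNA per cell cannot be told apart.

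Promoters of mitochondrial ribosomal protein genes are known as targets of NRF1, of ETS-family factors such as GABP, and of YY1, factors that tie nuclear genes to mitochondrial growth. RefSeq windows on GRCm38.p6, from 250 bases before to 50 bases after the start, were found for 69 of the 78 genes. Shown here are the windows of the 3 relatives of the bacterial small subunit protein S18, to which the age comparisons turn, of Mrps26, called between the burn groups with all libraries, and of Mrpl50, called there without young burn replicate 2. They lie at chr17:46110754-46111053 on the plus strand, chr17:35916391-35916690 on the minus strand, chr5:100798509-100798808 on the plus strand, chr2:130563507-130563806 on the plus strand and chr4:49521034-49521333 on the minus strand, and each is printed 5′ to 3′ along its gene. Capitals mark the ETS motif CCGGAAG and the YY1 motif AAGATGGC on either strand.
Mrps18a: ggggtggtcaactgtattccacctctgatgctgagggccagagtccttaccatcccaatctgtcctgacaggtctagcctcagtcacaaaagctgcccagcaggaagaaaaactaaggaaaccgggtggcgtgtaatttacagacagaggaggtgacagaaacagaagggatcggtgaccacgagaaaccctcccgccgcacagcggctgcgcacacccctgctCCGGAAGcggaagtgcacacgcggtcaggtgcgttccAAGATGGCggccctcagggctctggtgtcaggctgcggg
Mrps18b: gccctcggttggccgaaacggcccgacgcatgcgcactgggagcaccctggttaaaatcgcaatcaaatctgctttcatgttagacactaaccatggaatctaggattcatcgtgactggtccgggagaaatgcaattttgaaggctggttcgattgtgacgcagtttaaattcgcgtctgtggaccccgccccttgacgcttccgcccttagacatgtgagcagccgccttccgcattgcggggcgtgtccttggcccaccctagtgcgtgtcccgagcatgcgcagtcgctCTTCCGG
Mrps18c: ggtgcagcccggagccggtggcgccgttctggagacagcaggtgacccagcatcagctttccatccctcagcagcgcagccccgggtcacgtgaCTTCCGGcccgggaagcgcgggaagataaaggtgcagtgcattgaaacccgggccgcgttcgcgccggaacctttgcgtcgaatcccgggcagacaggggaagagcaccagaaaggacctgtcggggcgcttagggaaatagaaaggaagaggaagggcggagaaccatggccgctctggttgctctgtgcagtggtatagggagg
Mrps26: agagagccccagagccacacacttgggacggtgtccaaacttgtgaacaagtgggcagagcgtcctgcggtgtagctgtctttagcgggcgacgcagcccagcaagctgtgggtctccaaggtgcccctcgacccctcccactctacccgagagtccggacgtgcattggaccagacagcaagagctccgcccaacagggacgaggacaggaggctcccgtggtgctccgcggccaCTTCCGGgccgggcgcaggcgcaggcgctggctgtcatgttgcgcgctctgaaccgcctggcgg
Mrpl50: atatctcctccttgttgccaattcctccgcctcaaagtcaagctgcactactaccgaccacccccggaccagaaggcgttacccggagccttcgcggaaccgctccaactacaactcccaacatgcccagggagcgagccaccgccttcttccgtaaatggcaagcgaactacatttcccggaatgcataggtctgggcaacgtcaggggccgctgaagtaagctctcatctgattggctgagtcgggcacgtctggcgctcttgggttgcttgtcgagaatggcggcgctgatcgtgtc

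Each S18 relative and Mrps26 had 1 ETS motif, Mrps18a also had 1 YY1 motif, and Mrpl50 had neither. Mrps18b held the NRF1 core GCATGCGC, which shares no bases with these motifs there, at 2 places that are printed in lower case. Over the 69 windows, the ETS motif was found in 26 (37.7%), the YY1 motif in 12 (17.4%) and the NRF1 core in 8 (11.6%), on either strand. Among all 27025 windows of that length the same motifs were found in 9.08%, 2.86% and 2.78%. The E-box CACGTG was found in 7.25% of the members' windows and in 7.09% of all windows, and the SP motif GGGCGG in 47.8% and 35.6%. The median GC content was 58.0% for the members and 52.7% for all windows. These matches are letters in a window and do not show binding.

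Per length, the members spanned a wide range although they build 1 particle. The mean level over 12 libraries ran from 3.08 CPM per kb of exon for Mrps35 to 210.4 for Mrps21, a small relative of bacterial S21, with a median of 16.9. The other members at the top were Mrps28 at 104.1 CPM per kb, Mrpl12, which forms the stalk that binds translation factors, at 94.4, and Mrpl54 at 83.2. The lowest after Mrps35 were Mrpl19 at 3.62, Mrps25 at 4.03 and Mrps18b at 4.18 CPM per kb. The length used is that of all annotated exons of a gene, so long alternative ends lower the value. As levels per library, not per length, members were moderate and alike, since 65 of 77 had a mean between 20 and 100 CPM. Their median was 46.2 CPM against 20.1 for the other protein-coding genes tested, and together they took 0.380% to 0.450% of the counts of a library.

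**Figure D1:**
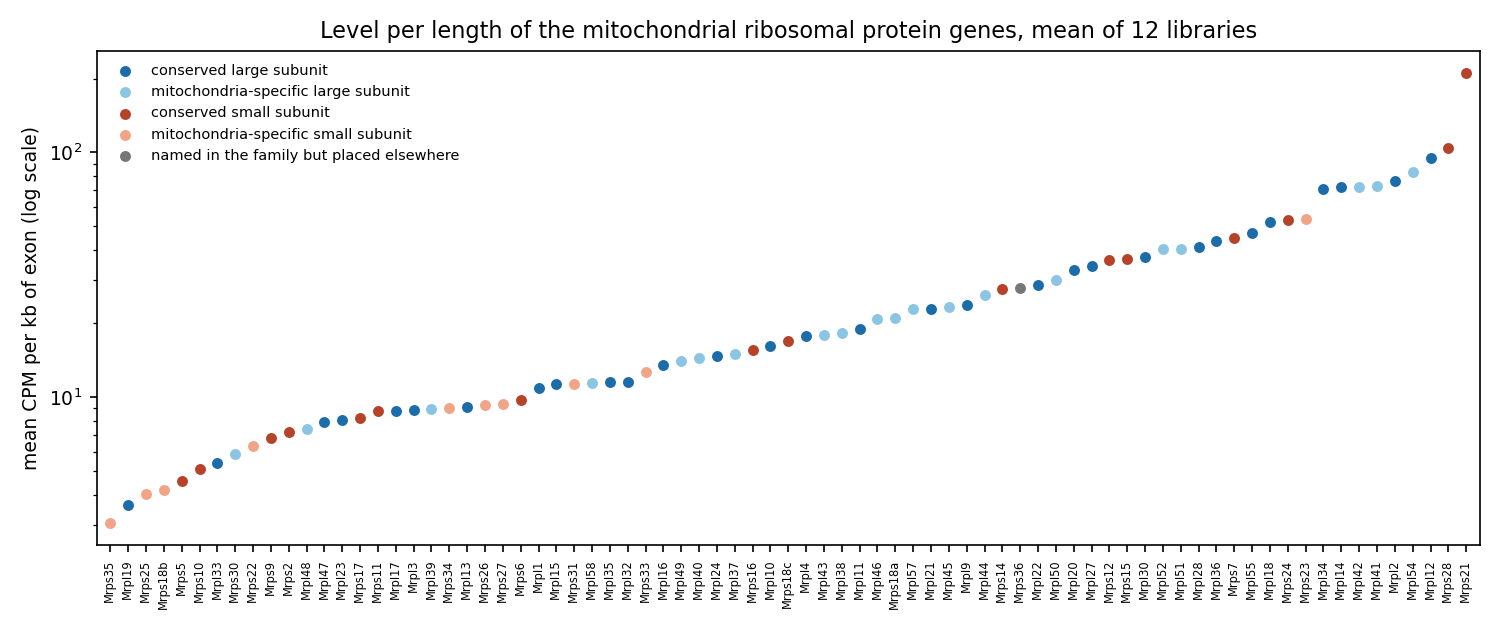
Mean level over 12 libraries in CPM per kb of exon, on a log scale, for the 77 members with a count, in order from lowest to highest and coloured by class. Small subunit members stand at both ends, Mrps35 at 3.08 and Mrps21 at 210.4 CPM per kb.

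The level of the whole family was followed in each mouse as the median, over the 77 members, of log2 CPM minus the member's own mean. That median was -0.074, 0.053 and 0.091 in young sham, -0.051, -0.13 and -0.131 in young burn, 0.027, -0.002 and 0.040 in adult sham, and 0.008, 0.061 and 0.104 in adult burn. All 3 young burn mice were below 0, all 3 adult burn mice were above it, and young sham spread on both sides. The same median over all genes tested stayed between -0.005 and 0.015 in every library. In young burn replicate 2 the members also scattered most, with an SD of 0.36 across members against 0.136 to 0.277 elsewhere. That mouse gave the lowest of the 12 values for 28 members and the highest for 11. Its low values included Mrpl12 at 88.0 CPM, Mrpl34 at 22.8 and Mrps16 at 22.6, and its high values Mrpl41 at 121.1 and Mrpl47 at 54.8.

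**Figure D2:**
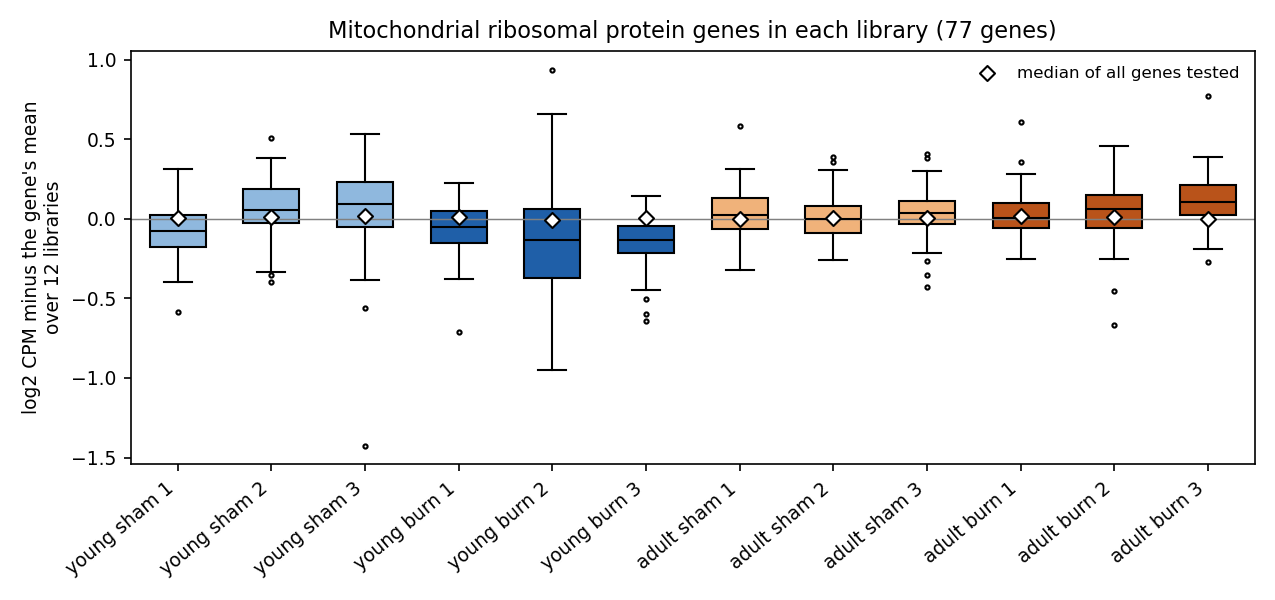
Box plots of log2 CPM minus each member's mean over 12 libraries, for 77 members in each library, with white diamonds for the median of all genes tested, boxes for the quartiles, and whiskers to the last point within 1.5 box lengths. The boxes of the young burn mice sit low and that of replicate 2 is the widest, with an SD of 0.36.

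Young and adult sham muscle had near equal levels over the family as a whole, and Mrps18b was the member furthest from 0. With edgeR's quasi-likelihood test and Benjamini-Hochberg adjustment over all genes, none of the 77 members passed an adjusted p of 0.05 with 12 libraries, where 3.75% of protein-coding genes did. At an unadjusted p under 0.05, 4 members were higher and 2 lower (5.19% and 2.60%, against 10.4% and 9.74% of protein-coding genes). DESeq2 called 1 member, Mrps18b, where it called 5.38% of protein-coding genes. Young burn replicate 2 takes part here only through the shared estimate of the spread, the normalization and the choice of genes tested. Without that mouse Mrpl27 rose and Mrps18b and Mrps18a fell in young mice. In that fit 5.09% of protein-coding genes were called higher, 6.77% lower and 11.9% in all. At an unadjusted p under 0.05 there were then 5 higher and 5 lower, against 12.9% and 15% of protein-coding genes, and DESeq2 called 2 members where it called 9.55%. The members' median log2 fold change was 0.022 against 0.009 for all genes, and their median absolute change was 0.116 against 0.228 for protein-coding genes. Groups did not overlap, with young sham above adult sham, for 5 members (6.49%, against 15.3% of protein-coding genes), and with young sham below for 6 (7.79%, against 16.0%). Among the genes tested with 11 libraries the backgrounds were 15.2% and 15.9%.

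Mrps18b, whose protein is found only in the small subunit of mitochondria, had 5.12, 6.08 and 2.68 CPM in young sham and 11.99, 10.4 and 10.4 in adult sham. Young burn had 4.66, 12.2 and 4.91 CPM, and adult burn 12.2, 10.3 and 13.7. All young sham mice were below all adult mice, and among the young only young burn replicate 2 stood at the adult level. The log2 fold change of young against adult sham was -1.22 (SE 0.363) with an adjusted p of 0.0750 in 12 libraries and -1.23 (SE 0.246) with 0.00589 in 11. Between the burn groups it was -0.73 (SE 0.325, adjusted p = 0.160) in 12 libraries and -1.33 (SE 0.263, adjusted p = 0.00343) in 11. The gene rested on 536 counts over all libraries, and 30.5% of its exon bases lie opposite the antisense gene Gm16279.

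Mrps18a, whose protein sits in the large subunit despite its name, had 64.8, 66.0 and 61.4 CPM in young sham and 80.9, 85.7 and 79.3 in adult sham. It had 72.2, 90.8 and 63.0 in young burn and 90.1, 85.7 and 96.9 in adult burn. Young and adult sham did not overlap, and again young burn replicate 2 alone among the young reached the adult range. Between the sham groups the log2 fold change was -0.35 (SE 0.133, adjusted p = 0.150) in 12 libraries and -0.36 (SE 0.097, adjusted p = 0.0256) in 11, and between the burn groups it was -0.27 (adjusted p = 0.191) and -0.42 (SE 0.107, adjusted p = 0.0136). Mrps18c, the relative that keeps the bacterial place in the small subunit, had 17.8, 22.9 and 20.2 CPM in young sham, 20.1, 21.4 and 17.2 in young burn, 16.8, 15.2 and 19.3 in adult sham and 16.3, 13.01 and 18.2 in adult burn. Its groups overlapped. Its log2 fold change of young against adult was 0.25 (SE 0.169, adjusted p = 0.434) in sham and 0.31 (SE 0.165, adjusted p = 0.240) in burned mice with 12 libraries, and 0.24 at either comparison with 11, with adjusted p of 0.348 and 0.335. The 3 relatives thus had values of different sign, a difference that was not itself tested.

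Mrpl27, a relative of the bacterial protein that lies near the peptidyl transferase centre, had 37.3, 39.3 and 42.2 CPM in young sham and 27.1, 30.8 and 32.9 in adult sham. Every young sham mouse was above every adult sham mouse. The log2 fold change was 0.39 (SE 0.125, adjusted p = 0.0993) in 12 libraries and 0.38 (SE 0.116, adjusted p = 0.0461) in 11. In burned mice the groups overlapped, at 33.7, 32.7 and 33.1 CPM in young burn and 28.2, 34.7 and 34.2 in adult burn.

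**Figure D3:**
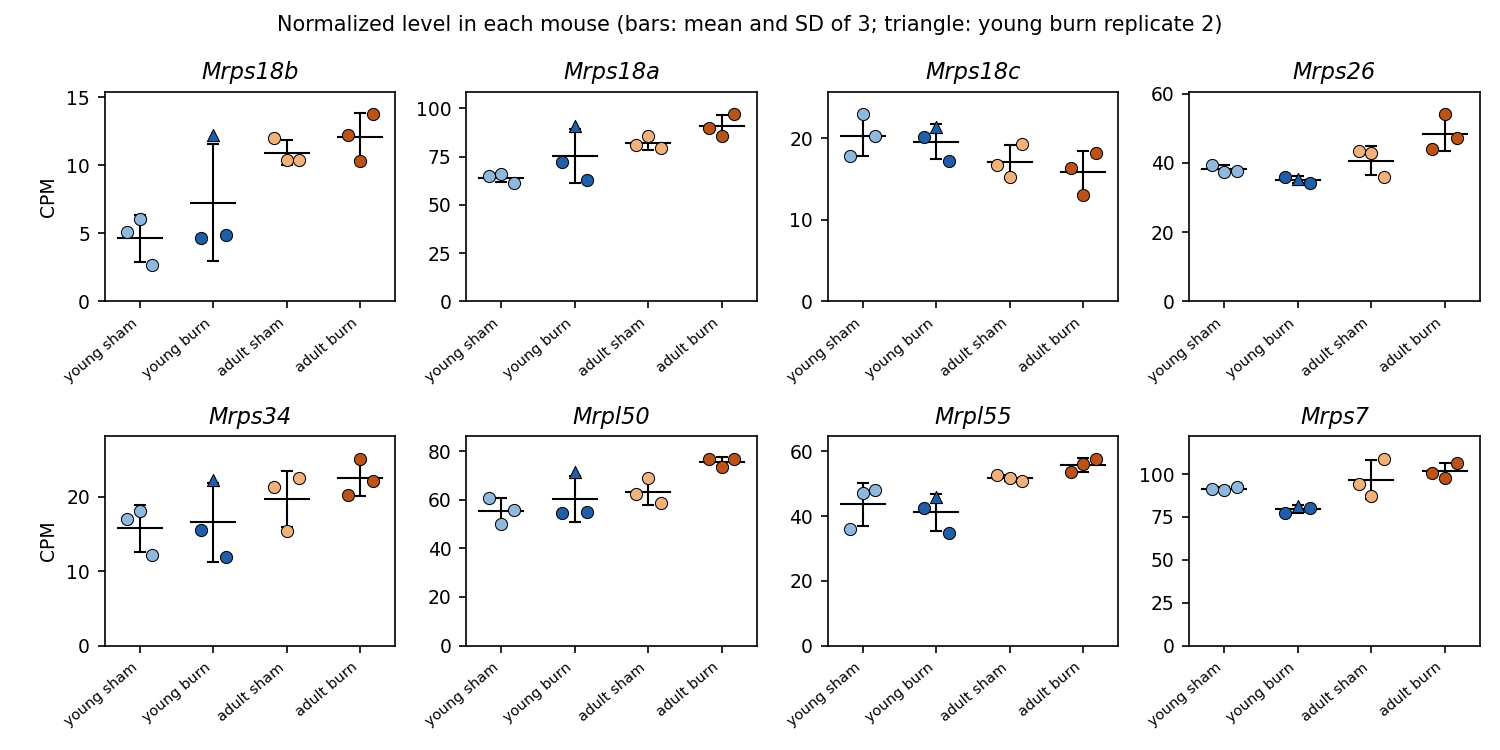
CPM of 8 members in each mouse by group, with a horizontal line at the mean of 3 mice, bars for the SD and a triangle for young burn replicate 2. In Mrps18b, Mrps18a and Mrpl50 the triangle lies among the adult mice while the other young burn mice lie below all of them.

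Young burn against adult burn gave the most calls in the family, all of them lower in young burn. With 12 libraries 1 of 77 members was called, Mrps26, which fell, where 4.92% of protein-coding genes were called lower and 6.12% higher. Before adjustment, 15 members (19.5%) were lower and 0 higher at a p under 0.05, against 13.3% and 15.5% of protein-coding genes. Without adult burn replicate 3 there were 4 lower and 1 higher, and leaving out any other mouse gave 9 to 17 lower. Fitting only the groups compared gave 6 lower. Background shares were not taken for most of these fits. DESeq2 called Mrps26 and Mrps7, both lower, where it called 11.6% of protein-coding genes in all, 5.35% lower and 6.21% higher. Without young burn replicate 2, 10 of 77 members fell and 0 rose, where 9.89% of protein-coding genes were called lower and 11.2% higher. The share called lower was thus near that of all protein-coding genes, whereas no member was called higher by edgeR. Before adjustment edgeR then had, at a p under 0.05, 17 members (22.1%) lower and 0 higher, against 17.5% and 18.6% of protein-coding genes. With these 11 libraries DESeq2 called 7 members lower and 0 higher. It called 15.9% of protein-coding genes in all, 7.91% lower and 7.99% higher. The median log2 fold change of the members was -0.16 against 0.017 for all genes in 12 libraries and -0.15 against 0.008 in 11. In 12 libraries 64 of 77 members (83.1%) were below 0, against 48.6% of protein-coding genes. Young burn lay wholly below adult burn for 18 members (23.4%, against 14.9%) in 12 libraries and for 35 (45.5%, against 27.4%) in 11, and wholly above it for 0 (against 15.9%) and 2 (2.60%, against 26.4%).

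Mrps26, a mitochondria-specific protein of the small subunit, had 36.0, 35.4 and 34.1 CPM in young burn and 44.1, 54.0 and 47.2 in adult burn. It had 39.5, 37.5 and 37.8 CPM in young sham and 43.4, 42.8 and 35.9 in adult sham. Both burn groups were apart from each other and the sham groups overlapped. The log2 fold change between the burn groups was -0.46 (SE 0.118, adjusted p = 0.0266) in 12 libraries and -0.46 (SE 0.123, adjusted p = 0.0177) in 11. From the fit of 12 libraries the call was lost without adult burn replicate 2 (adjusted p = 0.113), adult burn replicate 3 (0.0764), young burn replicate 1 (0.0516) or young burn replicate 3 (0.0801).

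The other 9 genes called without young burn replicate 2 belong to both subunits. Mrps34, which the small subunit needs to remain stable, had 15.6 and 11.9 CPM in young burn replicates 1 and 3, 22.3 in replicate 2, and 20.3, 25.1 and 22.1 in adult burn. Its log2 fold change was -0.70 (SE 0.202, adjusted p = 0.0246) in 11 libraries and -0.43 (SE 0.223, adjusted p = 0.215) in 12. Its exons share 63.4% of their bases with Mapk8ip3 on the opposite strand and 37.0% with Nme3 on the same strand, and the counting strand is not given in the sources used, so its counts are uncertain.

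Mrpl50, a mitochondria-specific large subunit protein, had 54.5, 71.4 and 55.0 CPM in young burn and 76.6, 73.6 and 76.9 in adult burn. All young burn mice were below all adult burn mice, and replicate 2 came closest. The log2 fold change was -0.33 (SE 0.13, adjusted p = 0.120) in 12 libraries and -0.46 (SE 0.114, adjusted p = 0.0113) in 11. Mrpl55, a large subunit protein with a bacterial relative, had 42.6, 46.0 and 34.7 CPM in young burn and 53.7, 56.0 and 57.7 in adult burn. The groups were apart with every library, at -0.44 (SE 0.135, adjusted p = 0.0528) in 12 libraries and -0.52 (SE 0.13, adjusted p = 0.0126) in 11.

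Mrps7, a head protein of the small subunit that starts its assembly in bacteria, had 77.4, 81.6 and 80.1 CPM in young burn against 100.6, 97.6 and 106.7 in adult burn, and young sham stood between them at 91.1, 90.7 and 92.6. Its groups were apart, with -0.35 (SE 0.11, adjusted p = 0.0572) in 12 libraries and -0.36 (SE 0.112, adjusted p = 0.0327) in 11. Mrps6 had 11.3, 14.4 and 12.7 CPM in young burn and 19.1, 14.6 and 17.8 in adult burn. The groups did not overlap, though young burn replicate 2 and adult burn replicate 2 lay close together. The log2 fold change of Mrps6 was -0.43 (adjusted p = 0.107) in 12 libraries and -0.52 (SE 0.176, adjusted p = 0.0481) in 11. The gene rested on 901 counts over all libraries. Its exons share 19.9% of their bases with Gm49711 and 10.4% with Slc5a3, both on the same strand.

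Mrps31 and Mrpl24 were called in no setting that was run other than the one without young burn replicate 2. Mrps31, a mitochondria-specific small subunit protein, had 28.7, 39.6 and 30.0 CPM in young burn and 36.7, 43.0 and 36.6 in adult burn, so that replicate 2 was inside the adult range. Its log2 fold change was -0.24 (adjusted p = 0.300) in 12 libraries and -0.40 (SE 0.132, adjusted p = 0.0445) in 11. Mrpl24, the relative of a bacterial protein that begins assembly of the large subunit, had 29.6, 46.4 and 27.6 CPM in young burn and 36.1, 37.2 and 39.2 in adult burn. Replicate 2 was the highest of these 6 mice. The log2 fold change of Mrpl24 was -0.12 (adjusted p = 0.707) in 12 libraries, turned to 0.018 without young burn replicate 3, and was -0.38 (SE 0.13, adjusted p = 0.0473) in 11. Of its exon bases, 26.3% lie opposite Rrnad1. Mrps25 had a larger difference that was not called, at -0.49 (adjusted p = 0.103) in 12 libraries and -0.30 (adjusted p = 0.182) in 11, and 69.8% of its exon bases lie opposite Nr2c2.

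**Figure D4:**
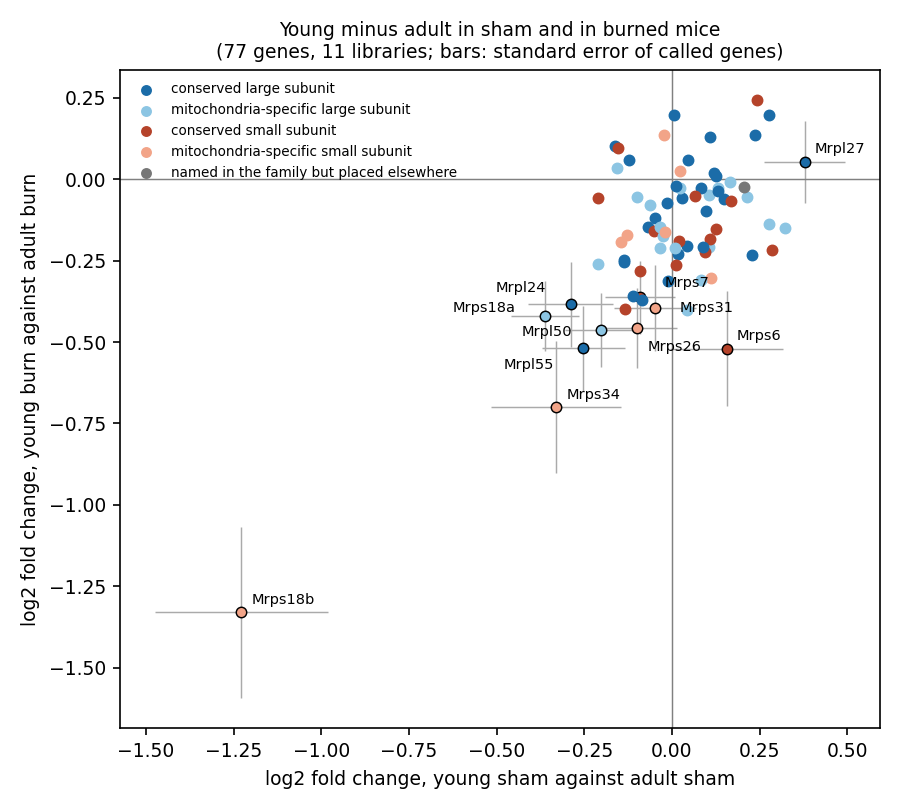
Log2 fold change of young against adult in sham mice (x axis) and in burned mice (y axis) for 77 members in the fit of 11 libraries, with named points and standard error bars for genes called in either comparison. Most points lie below the horizontal 0 line, the median on the y axis being -0.15 against 0.012 on the x axis, and Mrps18b is far from the rest at -1.23 and -1.33.

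Burn in adult mice brought no call and a median near 0. None of the 77 members was called in adult burn against adult sham by edgeR, at 12 or 11 libraries, where 0.00853% and 0.926% of protein-coding genes were, and DESeq2 called 0 in both, where it called 0.0853% and 1.75%. Before adjustment edgeR had, at a p under 0.05, 0 members with 12 libraries, against 3.26% of protein-coding genes higher and 3.53% lower, and 5 higher and 1 lower with 11, against 7.11% and 6.63%. The median log2 fold change was 0.058 against 0.000 for all genes, and adult burn lay wholly above adult sham for 12 members (15.6%, against 10.5%) and wholly below it for 4 (5.19%, against 9.66%), with backgrounds of 10.4% and 9.63% among the genes tested with 11. Mrpl41, a mitochondria-specific large subunit protein, had the value furthest from 0. It had 71.9, 73.9 and 65.7 CPM in adult burn and 58.7, 56.4 and 46.7 in adult sham, which did not overlap, with a log2 fold change of 0.39 (SE 0.226, adjusted p = 0.761) in 12 libraries and 0.38 (SE 0.113, adjusted p = 0.134) in 11. Mrpl33 followed with -0.32 (SE 0.186, adjusted p = 0.758) and Mrps6 with 0.29 (SE 0.164, adjusted p = 0.757) in 12 libraries, and they had -0.32 (adjusted p = 0.424) and 0.28 (adjusted p = 0.442) in 11.

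After burn in young mice most members had values below those of young sham, 56 of 77 (72.7%) against 47.7% of protein-coding genes in 12 libraries, with no member called by edgeR. With 12 libraries 0 of 77 passed, where 0.0683% of protein-coding genes did, and 18 members (23.4%) were lower and 1 higher at an unadjusted p under 0.05, against 9.39% and 10.9% of protein-coding genes. Without young burn replicate 2 again 0 passed, where 0.682% of protein-coding genes did. At an unadjusted p under 0.05, 11 members (14.3%) were then lower and 0 higher, against 6.68% and 9.51%. Leaving out a young sham mouse instead gave 21 lower without replicate 1, 8 without replicate 2 and 6 without replicate 3. Fitting only the groups compared gave 4 lower. The count of lower members thus changed with the mice left out and with the fit. Background shares were not taken for these fits, so whether the counts over all genes changed alike was not tested. Minus the median of all genes, the members' median was -0.169 with only the groups compared and -0.167 in the fit of 12 libraries. DESeq2 called Mrps21, lower in young burn, with 12 libraries and 0 members with 11. It called 3.55% and 1.56% of protein-coding genes in all, and 1.39% and 0.606% lower. The median log2 fold change was -0.16 against 0.009 for all genes in 12 libraries, -0.13 against 0.009 in 11, and 0.081 against 0.246 when 12 libraries were scaled by library size alone, so that its sign, but not its place below all genes, depended on the scaling. The 6 skeletal muscle markers had a median of -0.42 in 12 libraries and -0.32 in 11 in this comparison, and -0.41 and -0.31 between the burn groups. Their part in the family's values was not tested. Young burn lay wholly below young sham for 17 members (22.1%, against 11% of protein-coding genes) and wholly above it for 1 (1.30%, against 10.9%). In 11 libraries these were 21 (27.3%, against 15.6%) and 2 (2.60%, against 17.1%).

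Mrps21 was singled out after its values were seen. It had 170.7, 166.9 and 212.8 CPM in young sham, 141.7, 107.0 and 134.3 in young burn, 145.0, 146.2 and 157.6 in adult sham and 152.3, 164.3 and 166.9 in adult burn. Young burn was below every other mouse, and the young sham mice reached or passed the highest adult value. Its log2 fold change after burn in young mice was -0.52 (SE 0.135, adjusted p = 0.0844) in 12 libraries and -0.40 (SE 0.118, adjusted p = 0.123) in 11.

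The values furthest from 0 after burn in young mice, none of them called by edgeR, depended on replicate 2. For Mrps18b the log2 fold change was 0.64 (SE 0.374, adjusted p = 0.345) in 12 libraries and 0.039 in 11. Mrpl41 had 51.2, 52.5 and 60.5 CPM in young sham and 65.2, 121.1 and 56.0 in young burn, with 0.56 (SE 0.227, adjusted p = 0.193) in 12 libraries and 0.16 (adjusted p = 0.569) in 11. Mrpl34 had 47.0, 50.2 and 54.9 CPM in young sham and 44.1, 22.8 and 38.0 in young burn. Every young burn mouse was below every young sham mouse there, and the log2 fold change was -0.54 (SE 0.192, adjusted p = 0.159) in 12 libraries and -0.29 (SE 0.13, adjusted p = 0.291) in 11.

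Whether the burn difference depended on age was tested by an interaction term, the young burn difference minus the adult one. No member passed in 12 or 11 libraries by edgeR or DESeq2. Of protein-coding genes 0.0% and 0.101% did in edgeR, and 0.00853% and 0.438% in DESeq2. At an unadjusted p under 0.05, 9 members (11.7%) were lower and 0 higher in 12 libraries, against 3.40% and 3.81% of protein-coding genes. In 11 libraries 8 (10.4%) were lower and 0 higher, against 4.64% and 6.68%. Leaving out 1 mouse at a time gave 3 to 12 lower. There were 3 without young sham replicate 2, adult sham replicate 3 or adult burn replicate 3, and 12 without young sham replicate 1. Background shares were not taken for most of these fits. The median of the members was -0.19 against 0.017 for all genes in 12 libraries and -0.16 against 0.012 in 11, without young sham replicate 3 it was -0.13, and with library size alone it turned to 0.059 against 0.268 for all genes. The skeletal muscle markers had -0.56 in 12 libraries and -0.45 in 11. The values furthest from 0 were those of Mrps21 at -0.63 (SE 0.191, adjusted p = 0.683), Mrps25 at -0.61 (SE 0.265, adjusted p = 0.684) and Mrps6 at -0.59 (SE 0.235, adjusted p = 0.683), and they were -0.50, -0.41 and -0.68 in 11 libraries. In a model with age and burn but no interaction, 0 members were called by edgeR or DESeq2 with either set of libraries, where 0.725% and 2.17% of protein-coding genes were in edgeR and 3.07% and 3.22% in DESeq2. At an unadjusted p under 0.05, 2 members were higher and 7 lower with 12 libraries, against 10.5% and 9.06% of protein-coding genes, and 1 was higher and 6 lower with 11 (1.30% and 7.79%, against 9.01% and 7.57%). Its largest values were 0.47 for Mrpl41 (SE 0.156, adjusted p = 0.139), -0.41 for Mrpl33 (SE 0.129, adjusted p = 0.129) and -0.37 for Mrpl18 (SE 0.134, adjusted p = 0.173) in 12 libraries. Without young burn replicate 2 they were 0.29, -0.36 and -0.25, with adjusted p of 0.109, 0.152 and 0.153, so the value of Mrpl41 in 12 libraries depended on that mouse.

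By origin and subunit, the members fall into 30 large subunit proteins with bacterial relatives, 21 large subunit proteins known only from mitochondria, 16 small subunit proteins with bacterial relatives, 10 mitochondria-specific small subunit proteins, and Mrps36, now placed in the 2-oxoglutarate dehydrogenase complex. After burn in young mice, the median log2 fold change with 12 libraries was -0.14 in the conserved large, -0.15 in the mitochondria-specific large, -0.29 in the conserved small and -0.10 in the mitochondria-specific small subunit class. With 11 libraries these were -0.096, -0.14, -0.21 and -0.058. The conserved small subunit genes had 13 of 16 members below 0 in 12 libraries and 14 in 11. Mrps36 had -0.34 and -0.22. The differences between classes were not tested. Between the burn groups in 11 libraries, 9.89% of protein-coding genes were called lower. Of the large subunit genes tested, which leaves out Mrpl53, 2 of 30 conserved and 2 of 20 mitochondria-specific ones fell. In the small subunit 2 of 16 conserved and 4 of 10 mitochondria-specific genes fell, the last being Mrps18b, Mrps26, Mrps31 and Mrps34.

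The partners of the mitochondrial ribosome were read from hand-written lists. Between the sham groups edgeR called 1.84% of protein-coding genes higher in young mice and 1.91% lower with 12 libraries, and 5.09% and 6.77% with 11. Between the burn groups it called 6.12% higher and 4.92% lower with 12, and 11.2% and 9.89% with 11. The calls in the lists below are few and are to be read beside these shares. The 5 ribosome proteins of other names, among them Dap3 and Chchd1, had 0 calls in every comparison with edgeR, and a median of -0.28 after burn in young mice with 12 libraries and -0.20 with 11. The 24 assembly factors, some of which methylate ribosomal RNA or act as GTPases, had 0 called between the sham groups in 12 libraries and 2 called in 11, where Nsun4 fell by 0.48 and Rbfa by 0.79 on the log2 scale in young mice. Between the burn groups Malsu1, a factor that keeps the large subunit from early joining, fell by 0.45 (SE 0.124, adjusted p = 0.0348) in 12 libraries. In 11 libraries Malsu1, Rcc1l and Mtg2 fell by 0.51, 0.55 and 0.49. Assembly factors had a median of -0.20 between the burn groups in 12 libraries and -0.25 in 11, and after burn in young mice the median turned from 0.038 in 12 to -0.064 in 11.

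Of 14 translation factors tested, Lrpprc, which stabilises mitochondrial messages, and Taco1, which aids translation of cytochrome oxidase subunit I, fell by 0.54 (adjusted p = 0.0140) and 1.24 (adjusted p = 0.0186) on the log2 scale in young against adult sham with 12 libraries. With 11 libraries Tufm, the elongation factor Tu, also fell by 0.37. Between the burn groups 0 were called in 12 libraries, and in 11 Guf1 rose by 0.49 and Lrpprc fell by 0.38. Of 17 mitochondrial tRNA synthetases only Lars2 was called by edgeR, between the burn groups, at -1.65 (adjusted p = 0.0290) in 12 libraries and -1.47 (adjusted p = 0.0326) in 11. Lars2 had 241.0, 1294 and 407.5 CPM in adult burn and 154.8 to 243.4 in young burn, and adult burn replicate 2 stood far above the other mice.

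The 8 genes of mitochondrial DNA transcription and replication had a median of -0.17 between the sham groups and -0.24 between the burn groups with 12 libraries, and of -0.18 and -0.22 with 11. Polrmt, the mitochondrial RNA polymerase, fell by 0.56 (SE 0.132, adjusted p = 0.0189) in young against adult burn with 12 libraries, and with 11 Polrmt, Tfam and Tfb2m fell by 0.58, 0.44 and 0.52. Twnk, the helicase of mitochondrial DNA, fell by 0.61 in young against adult sham with 11 libraries, and 33.4% of the exon bases of Mrpl43 lie opposite it. Among 8 regulators of mitochondrial growth, 0 were called in 12 libraries, and in 11 Esrra fell by 0.42 between the sham groups and Yy1 by 0.35 between the burn groups. Among 11 markers of mitochondrial content, the inner membrane import channel Timm23 fell by 0.79 between the sham groups (adjusted p = 0.0102) and by 0.73 between the burn groups (adjusted p = 0.00716), with 12 libraries. Hspa9 fell by 0.69 between the sham groups and Vdac2 by 0.46 between the burn groups in that fit. With 11 libraries 5 of the 11 content markers fell between the sham groups, where 6.77% of protein-coding genes were called lower. Between the burn groups 3 fell and 1, Idh2, rose, where 9.89% were called lower and 11.2% higher. The content markers had a median of -0.28 between the sham groups, where the ribosomal proteins had 0.022 with 12 libraries and 0.012 with 11.

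The messages that this ribosome translates had lower medians after burn at both ages and a higher median in young sham, with no call. Of 13 messages of the mitochondrial genome 11 were tested, and edgeR called 0 in each comparison. Their median log2 fold change was 0.25 in young against adult sham, -0.35 after burn in adults and -0.68 after burn in young mice with 12 libraries, and 0.24, -0.36 and -0.42 with 11. All 11 were below 0 after burn at either age. Young sham replicate 3 was the highest of all mice for each of the 11. In mt-Co1 it alone of young sham was above adult sham, with 25060, 25420 and 40200 CPM against 26410, 29810 and 28230. Young burn had 25850, 16220 and 24020 CPM there. In mt-Nd4 all young sham mice were above adult sham, with 10600, 10630 and 17230 CPM against 9157, 10240 and 9157. The part of that mouse in the medians was not tested. mt-Nd2 had 8945, 8973 and 15340 CPM in young sham, 7325, 4201 and 7080 in young burn, 9275, 10380 and 8262 in adult sham and 6930, 7049 and 9173 in adult burn. Its young groups did not overlap and its adult groups did, with a log2 fold change after burn in young mice of -0.84 (SE 0.252, adjusted p = 0.112) in 12 libraries and -0.61 (SE 0.212, adjusted p = 0.173) in 11. The mitochondrial genome has near-identical copies in the nucleus, so reads may be split, and mt-Co2, mt-Co3, mt-Atp6 and mt-Nd3 were counted at 0.548 to 33.9 CPM where the other 7 had 1366 to 40200.

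**Figure D5:**
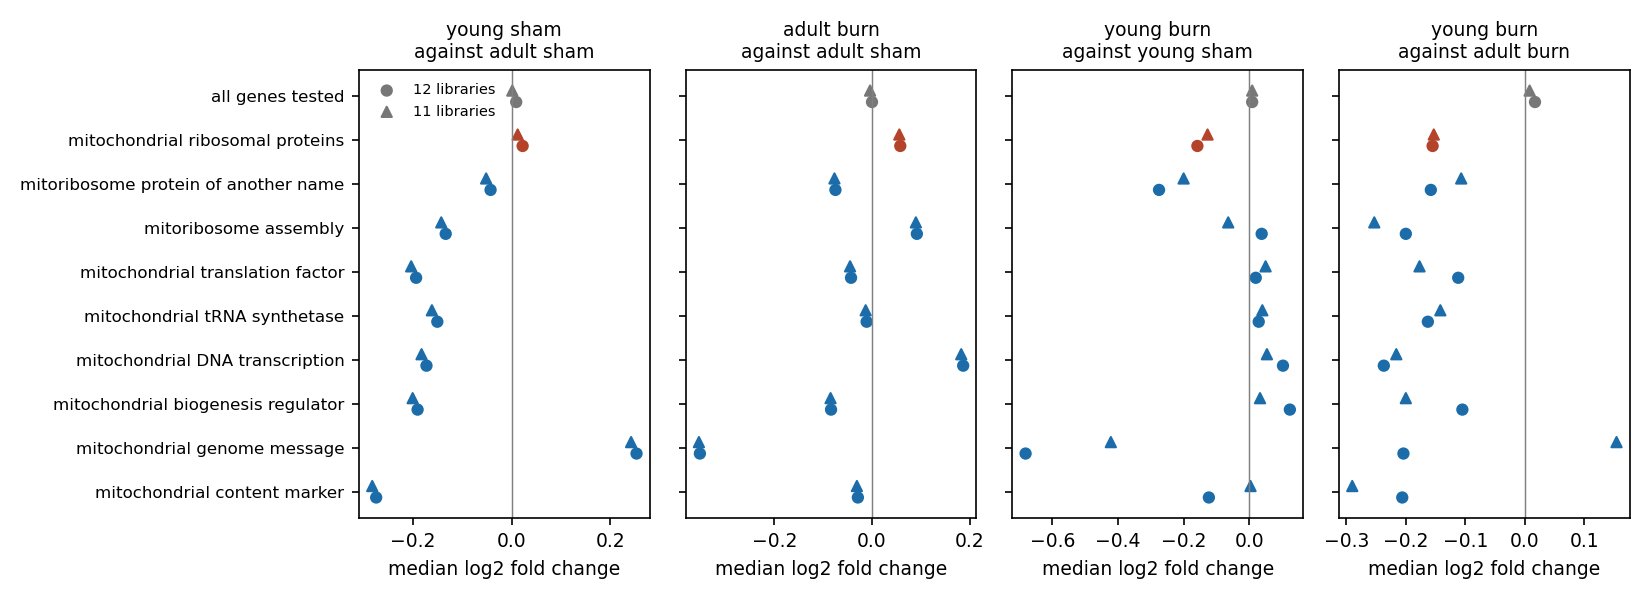
Median log2 fold change of each list in 4 comparisons, with circles for 12 and triangles for 11 libraries, grey for all genes tested, red for the mitochondrial ribosomal proteins and blue for related lists, each panel with its own x axis. The red points lie near 0 between the sham groups and at -0.16 (circles) after burn in young mice and between the burn groups, and the mitochondrial messages lie at -0.68 after burn in young mice.

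In the genome the members were spread over 17 chromosomes, with at most 11 on a chromosome. Of 78 members, 23 (29.5%) had a protein-coding gene on the opposite strand that starts from 1000 bases before to 300 bases after their own start. The share among all protein-coding genes was 8.64%. Pairs whose ends overlap were thus counted too. Some of these neighbours are mitochondrial too, such as Ndufs6, a complex I subunit that starts 29 bases from Mrpl36, and Sars2, the mitochondrial seryl-tRNA synthetase, 172 bases from Mrps12. Psma2, a proteasome subunit, starts 75 bases from Mrpl32. Ppp1r10, 45 bases from Mrps18b, stood at 0.25 on the log2 scale (adjusted p = 0.525) between the burn groups in 11 libraries where Mrps18b had -1.33. Gga3, 126 bases from Mrps7, had 0.10 (adjusted p = 0.714) where Mrps7 had -0.36, and Zfp189, 83 bases from Mrpl50, had -0.28 (adjusted p = 0.558) where Mrpl50 had -0.46. The exons of 33 members overlap those of another gene, which leaves part of their counts uncertain.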

How the data were processed

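Poly-A RNA of gastrocnemius was measured in 12 mouse libraries. Per gene of Gencode M25, the authors took counts from STAR's GeneCounts option after alignment to GRCm38. The submitters' processing notes name STAR 2.7.5c. The deposited values are raw counts per gene, without normalization or filter, and the counting strand is not given in the sources used. Small RNA libraries were not used here.

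Symbols, biotypes and exons came from Gencode M21 on GRCm38 by identifier without version, which 260 genes did not match. The members and lists were chosen with earlier results of these data known. In R 4.3.3, counts were normalized by TMM in edgeR 4.0.16, and genes kept by filterByExpr (minimum count 10, minimum total 15) numbered 12408 in 12 libraries and 12651 in 11. A mean per group was fitted by edgeR's quasi-likelihood model, tests were two-sided, and p was adjusted by Benjamini-Hochberg over all genes. Calls were made at an adjusted p under 0.05, and background shares refer to 11720 or 11878 protein-coding genes. The standard error is the absolute log2 fold change over the root of the F statistic. Levels are TMM-normalized CPM, and log2 CPM used a prior count of 2. DESeq2 1.42.0 was an alternative. The edgeR code was tested on simulated data. Figures used matplotlib 3.10.9.

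Named were the members called in a comparison (at most 12), the 3 with the largest change in each, the 4 highest and 4 lowest per length, the S18 relatives, and from other lists up to 4 genes called. The 11-library fits leave out young burn replicate 2 because the study excluded 1 young burn animal as an outlier from its heat map, which shows replicates 1 and 3. No source says that mice were separate litters or cages, so p-values measure the spread between these mice. Equal replicate numbers did not pair the mice (correlations of deviations from -0.197 to 0.153). In total 20 alternatives were run, 2 of them added after the data were seen.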

Additional observations from a re-analysis of the deposited data

Results flagged for a closer look

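In Mrps26, young burn lay wholly below young sham, whereas adult burn lay wholly above adult sham. Its 3 young burn mice had 34.1 to 36.0 CPM, below the 37.5 to 39.5 CPM of young sham, and its 3 adult burn mice had 44.1 to 54.0 CPM, above the 35.9 to 43.4 CPM of adult sham. The log2 fold change after burn was -0.12 (SE 0.121) in young and 0.25 (SE 0.118) in adult mice. The difference of both burn effects was -0.37 (SE 0.169) in 12 libraries and -0.36 (SE 0.167) in the 11 without young burn replicate 2. It did not pass the adjusted threshold in edgeR's quasi-likelihood test, with an adjusted p of 0.684 and 0.444. Sham and burned mice were different animals, so these values compare groups and do not follow any mouse. The share of all genes with both separations was not taken.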

How the results depend on the processing

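Of the 20 alternatives, each changed 1 choice, except that DESeq2 and library size alone were also run without young burn replicate 2, as alternatives chosen after seeing the data. Called members in young against adult sham, 0 with 12 libraries, were 1 with DESeq2, 1 with no filter on low counts, 2 with only the groups compared, and, without young burn replicate 2, 2 with DESeq2 and 4 with library size alone. Leaving out each replicate in turn gave 0 to 3, with 3 without young burn replicate 2. In young burn against young sham, 0 became 1 with DESeq2 and 3 with no filter, and 0 to 2 on leaving out replicates, with 2 without young burn replicate 1. In young burn against adult burn, 1 became 2 with DESeq2, 0 with library size alone, 0 with only the groups compared, and, without young burn replicate 2, 7 with DESeq2 and 4 with library size alone. Leaving out replicates gave 0 to 10 there, with 0 without adult burn replicate 2 or 3 or young burn replicate 3, 10 without young burn replicate 2, and 2 without young sham replicate 1. In the model with age, 0 became 2 with no filter. Shares of protein-coding genes called were taken only for edgeR and DESeq2 with 12 libraries and without young burn replicate 2. In young against adult sham, edgeR called 3.75% of protein-coding genes with 12 libraries and 11.9% without that mouse. The counts of called members across settings are therefore not results about the members alone. The causes were not tested.

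With library size alone the median of all genes was -0.13 in young against adult sham, 0.25 in young burn against young sham and 0.13 in young burn against adult burn, against 0.009, 0.009 and 0.017 with TMM. The members' medians were then -0.12, 0.081 and -0.052, with 0.059 for the interaction and 0.032 in the model with age. Without young burn replicate 2 they were -0.12, 0.034 and -0.12, with 0.017 for the interaction and 0.014 in the model with age. Minus the median of all genes, the members' median over all alternatives was -0.215 to -0.13 in young burn against young sham, -0.222 to -0.145 in young burn against adult burn and -0.251 to -0.154 in the interaction. The differences of the other comparisons were smaller and also moved. In the model with age the difference went from -0.086 to -0.031 with no filter and -0.044 without young burn replicate 3. In adult burn against adult sham it went from 0.058 to 0.030 without adult burn replicate 3 or adult sham replicate 1. In young against adult sham it went from 0.013 to 0.055 without young sham replicate 1 and -0.010 with no filter. On leaving out replicates the members' median was -0.20 to -0.12 in young burn against young sham, -0.20 to -0.13 in young burn against adult burn, and -0.23 to -0.13 in the interaction, where -0.13 came without young sham replicate 3. Mrpl24 in young burn against adult burn turned to 0.012 with library size alone and, on leaving out replicates, ran from -0.38 without young burn replicate 2 to 0.018 without young burn replicate 3. A replicate block gave 1 call (Mrps26) in young burn against adult burn and 0 in the others, with a median of -0.16 in young burn against young sham, and the replicate numbers share no more than a number.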
